A study of Mus musculus with 9 samples.

Results

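The clustered histone genes were analyzed in 9 mouse lymphomas as the genes of the count table whose symbol begins with Hist1h, Hist2h, Hist3h or Hist4h, pseudogenes left out, and that held at least 10 counts summed over all tumors. Of the 41128 genes in the table, 69 carried such a name and 54 met the limit. By their symbols, the 54 genes comprised 5 of the linker histone H1, 12 of H2A, 15 of H2B, 10 of H3 and 12 of H4. The gene ID of Hist2h2bb, counted under H2B, is annotated as a long noncoding RNA in GENCODE M21, in another version than in the count table. Just inside the limit were Hist2h2bb with 14 counts and Hist1h2bf with 16, and just outside were Hist1h2af and Hist1h4k with 9 counts each. A further 9 genes of this name had no count in any tumor, which by counting error alone allows a level of up to 0.0240 CPM (counts scaled by the total to the same library size) over all tumors. This bound does not hold where reads cannot be told apart from those of genes of like sequence.

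RNA was sequenced from 3 lymphomas of IµBcl6 Smc3 wt/wt mice (Bcl6) and 6 of IµBcl6 Smc3 wt/- mice (Smc3/Bcl6), 1 library per tumor, to ask how loss of 1 allele of Smc3, a core subunit of cohesin, changes expression in lymphoma. Both genotypes carried the IµBcl6 transgene, which keeps Bcl6 on in B cells, and Cγ1-Cre, which acts in B cells on germinal center entry, so the control tumors carried the transgene and the Cre as well. By the study's scheme, donor bone marrow was transplanted into irradiated recipients that were immunized repeatedly with sheep red blood cells, so host cells can be present in a tumor, and the ages of the mice are not given in the sources used here. In the labels, replicate 1 of each genotype is from the mesenteric lymph node, and the other tumors are given as lymph node. The study's results section names the mesenteric node for the sequenced lymphomas of both genotypes. Nothing in the labels says that tumors came from separate donors, and p-values therefore measure the spread between these tumors.

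Histones package DNA into nucleosomes, with H2A, H2B, H3 and H4 in the core and H1 on the linker DNA. Most of their genes lie in clusters and are switched on as cells replicate DNA, and their mRNAs usually end in a short stem-loop bound by Slbp in place of a poly(A) tail, although some clustered genes also give polyadenylated transcripts. Germinal center B cells and the lymphomas that arise from them divide fast, so this gene family is often read beside proliferation genes such as Mki67.

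The stem-loop sets these mRNAs apart and is therefore shown for 1 gene of each sequence found, read from the GENCODE M21 transcripts (GRCm38), with both arms of the stem in capitals and the loop in lower case. Hist1h1c represents 21 genes of the H1, H2A, H2B and H3 types (chr13:23739512-23739527, plus strand), Hist1h3e 5 genes of the H2B and H3 types (chr13:23561903-23561918, minus strand) and Hist2h2ac itself alone (chr3:96220418-96220433, minus strand). Hist1h4d represents 7 H4 genes (chr13:23581950-23581965, plus strand), Hist1h4i 2 (chr13:22040966-22040981, minus strand) and Hist1h4b 2 (chr13:23757366-23757381, plus strand).
Hist1h1c: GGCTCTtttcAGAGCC
Hist1h3e: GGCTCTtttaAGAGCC
Hist2h2ac: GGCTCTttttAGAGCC
Hist1h4d: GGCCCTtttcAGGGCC
Hist1h4i: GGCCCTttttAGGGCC
Hist1h4b: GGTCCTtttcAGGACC

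Such a sequence followed the stop codon in 38 of the 54 genes, against 61 of the 21901 genes coding for protein in the same annotation (0.279%). The stems of the H4 genes differed from the stem shared by the other types, and the loops varied in their last base. Of the other members, 11 were counted as having at most 16 bases after the stop codon, too short to hold the stem-loop. Among these 11, Hist2h2bb has a noncoding model without a stop codon and was not searched. A further 5 had more than 16 bases there but no such sequence, and held 14.9% of all counts on the family. They were Hist1h2bc, Hist2h2be, Hist1h1a, Hist1h3g and Hist1h4a. For 20 genes the model ran more than 100 bases past the stem-loop, and these 20 held 67.0% of all counts on the family. The 18 genes whose model ended within 100 bases of the stem-loop held 8.18%. The library kit was an mRNA kit, and the enrichment step is not given in the sources used here.

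The upstream sequences are shown for the members around which the results turn, read from RefSeq promoters on GRCm38.p6, in which 49 of the 54 genes were found. Capitals mark the TATA box word TATAAA, the box word CCAAT, the octamer word ATTTGCAT and the H1 box word AAACACA, each on either strand, so that a word also appears as its reverse complement. The Hist1h2ae to Hist1h2bg stretch (chr13:23571221-23571395, plus strand) and the Hist2h2ac to Hist2h2be stretch (chr3:96220881-96221118, plus strand) lie between gene pairs that point away from each other. The Hist1h1c sequence is chr13:23738557-23738806 on the plus strand and the Hist1h1b sequence is chr13:21780626-21780875 on the minus strand.
Hist1h2ae to Hist1h2bg: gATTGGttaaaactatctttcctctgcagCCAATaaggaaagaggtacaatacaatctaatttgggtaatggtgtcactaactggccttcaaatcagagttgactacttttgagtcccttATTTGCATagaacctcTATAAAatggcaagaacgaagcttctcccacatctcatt
Hist2h2ac to Hist2h2be: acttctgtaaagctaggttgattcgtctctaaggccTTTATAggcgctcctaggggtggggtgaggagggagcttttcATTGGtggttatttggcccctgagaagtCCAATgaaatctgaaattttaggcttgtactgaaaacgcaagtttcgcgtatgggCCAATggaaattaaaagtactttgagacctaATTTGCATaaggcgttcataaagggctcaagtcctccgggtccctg
Hist1h1c upstream: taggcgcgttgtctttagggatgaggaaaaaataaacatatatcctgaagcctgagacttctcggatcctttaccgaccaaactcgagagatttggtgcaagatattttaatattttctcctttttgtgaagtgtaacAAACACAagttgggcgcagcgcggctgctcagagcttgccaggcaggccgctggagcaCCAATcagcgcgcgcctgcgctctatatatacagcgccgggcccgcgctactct
Hist1h1b upstream: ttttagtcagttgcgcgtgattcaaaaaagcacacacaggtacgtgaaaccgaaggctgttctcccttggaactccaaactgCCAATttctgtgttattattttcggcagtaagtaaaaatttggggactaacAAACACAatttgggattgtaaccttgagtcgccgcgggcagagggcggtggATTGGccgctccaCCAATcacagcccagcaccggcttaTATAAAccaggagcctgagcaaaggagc

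CCAAT was present within 250 bases before to 50 after the start of all 5 H1, 12 H2A, 13 H2B and 8 H3 genes matched and in 3 of 11 H4 genes, against 37.9% of 27025 promoters. TATAAA was in 63.3% of the matched members, compared with 14.2% of all promoters. The octamer was in 6 of 12 H2A and 5 of 13 H2B promoters and in none of the others, against 1.75% of all promoters. The word AAACACA was in 4 of 5 H1 promoters and in 7.14% of all promoters. Between Hist1h2ae and Hist1h2bg, the octamer and TATAAA both lay toward Hist1h2bg. Between Hist2h2ac and Hist2h2be, a TATA word on the other strand lay toward Hist2h2ac and the octamer toward Hist2h2be. These matches describe letters and do not show that a factor was bound.

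Of the 54 genes, 45 lay in the Hist1 cluster (chr13:21715763-23764406), 6 in Hist2 (chr3:96219865-96279001), 2 in Hist3 (chr11:58948920-58956830) and 1, Hist4h4, on chromosome 6. Total counts ranged from 10156728 to 17774577 per tumor, and the family held 26817 of 125066749 counts. H1 genes took 40.3% of the family's counts, H2B 22.3%, H4 19.5%, H2A 14.9% and H3 3.04%. Hist1h1c alone held 24.0% and the top 10 genes 74.9%. These shares pool the counts of all tumors, and 3485 of the 6443 counts on Hist1h1c were from Smc3/Bcl6 tumor 4. Positions and lengths are from GENCODE M21. Per kilobase of exon, over the 33 genes whose model there has the version used in the count table, the median over tumors was highest for Hist1h1c at 17.9 CPM per kb, then Hist1h1b at 12.8, Hist1h4i at 7.54 and Hist3h2a at 3.75, and the median gene had 0.848.

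Histone genes of a type are nearly alike in sequence, which limits how reads can be assigned to them. Of all 50-base words in a member's transcripts, a median of 53.6% were in no other gene. For 13 genes this was at least 80%, among them Hist1h1b (100%), Hist1h1c (91.5%), Hist1h4d (89.8%) and Hist1h4c (80.4%). Hist1h2ae (56.8%), Hist1h2bg (50.3%), Hist1h3a (50.5%), Hist2h2ac (45.0%) and Hist1h2ab (42.0%) shared more with other genes, and their counts are uncertain to that extent. Hist2h2aa1, Hist2h2aa2, Hist2h3b and Hist2h3c1 had no word of their own and no count. Hist1h2bq (2.68%), Hist1h2ao (6.50%) and Hist1h2br (11.3%) had few such words and no count either. Having no count does not bound the level of these genes. Hist1h1e and Hist1h2be overlap on the same strand, Hist3h2a overlaps Trim17 on the same strand, and Hist1h2ae, Hist2h2ac and Hist1h2ab overlap predicted genes on the opposite strand. Whether counting used strand is not given in the sources used here.

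B-cell markers were present in every tumor, at 3077 to 12835 CPM summed over 10 genes. Smc3, the targeted gene, had 126, 99.5 and 88.1 CPM in the Bcl6 tumors and 107, 27.9, 105, 89.7, 111 and 108 CPM in Smc3/Bcl6 tumors 1 to 6 (log2 fold change -0.19, SE 0.38). Its genotype groups overlapped, and 5 of the 6 Smc3/Bcl6 tumors had more than the lowest Bcl6 tumor. The study itself reported reduced Smc3 expression in Smc3/Bcl6 tumors, with RT-qPCR of Smc3 mRNA among its evidence. Smc3/Bcl6 tumors 2 and 4 stood apart from the other 7 libraries. In tumor 2 the TMM factor, which scales a library to the others, was 0.693 against 0.964 to 1.10 elsewhere, and mitochondrial rRNA reached 30372 CPM against 3824 to 15483. In tumor 4, 10 erythroid markers summed to 13317 CPM, and snRNA genes to 87.5 against 29.6 to 47.6 in the 7 tumors. Results that rest on these 2 tumors are given with and without them.

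Summed over the 54 genes, CPM were 192, 143 and 150 in Bcl6 tumors 1 to 3, where sums over genes are scaled by the total count of a tumor alone. They were 160, 410, 120, 546, 104 and 98.8 in Smc3/Bcl6 tumors 1 to 6. Tumors 2 and 4 were the highest of all 9, with 95% Wilson intervals of 400 to 421 and 534 to 558, which cover counting error only. The order of these 2 rests on that scaling, as the TMM factors, 0.693 in tumor 2 and 1.03 in tumor 4, would place tumor 2 first. The mean was 162 ± 26.8 (SD, n = 3) in Bcl6 and 240 ± 191 (SD, n = 6) in Smc3/Bcl6 tumors, and the genotypes overlapped. Without tumors 2 and 4 the Smc3/Bcl6 mean was 121 ± 27.7 (SD, n = 4), below the Bcl6 mean. In bulk tissue, fewer cells of a type and less RNA per cell cannot be told apart.

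**Figure D1:**
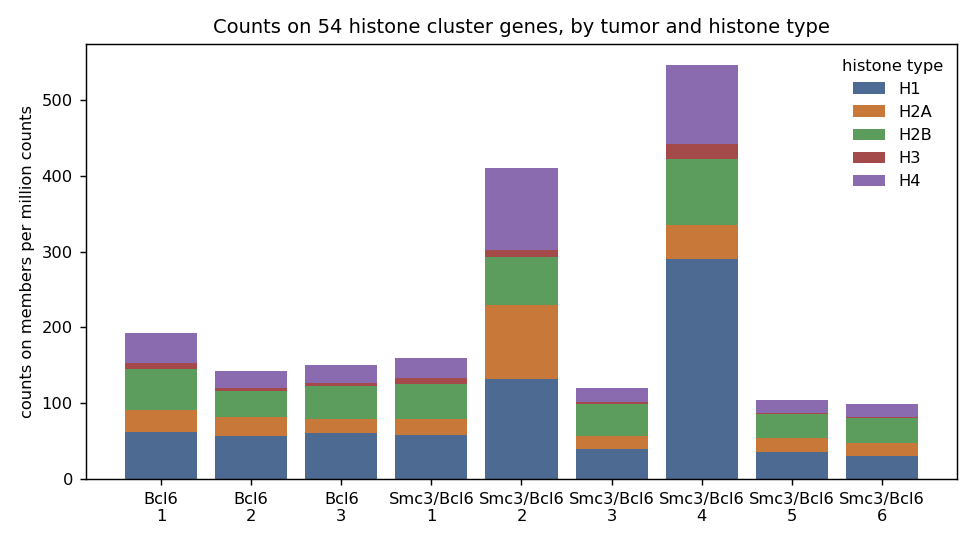
Summed CPM of the 54 clustered histone genes (vertical axis, scaled by total counts) in each tumor (horizontal axis), stacked by histone type, with no error bars since each bar is 1 library. Smc3/Bcl6 tumors 2 and 4 reach 410 and 546, and the other 7 tumors lie between 98.8 and 192.

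The surplus had a different makeup in the 2 tumors. H1 genes reached 291 CPM in tumor 4 and 133 in tumor 2, against 31.3 to 62.3 in the other 7. H2A genes reached 97.7 in tumor 2 and 44.4 in tumor 4, against 17.1 to 28.8. Scaled by total counts, H4 genes were alike in both, at 109 in tumor 2 and 105 in tumor 4, against 16.2 to 39.1 elsewhere. H2B genes had 62.8 and 87.0, against 31.2 to 53.8, and H3 genes had 8.64 and 19.0, against 1.72 to 8.36. With TMM scaling, tumor 2 would lie above tumor 4 for H4 and for H2B genes. As a share of the family's counts, H1 made up 53.2% in tumor 4 (95% Wilson interval 52.1 to 54.3%) and 31.7 to 40.8% in the others, and H2A made up 23.8% in tumor 2 and 8.13 to 17.9% in the others.

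Of the 54 genes, 30 passed edgeR's filter on low counts and entered the test of genotypes, and 24 with 14 to 117 counts did not. A gene could pass through its highest tumors alone. With the study's thresholds (p below 0.1 before adjustment, log2 fold change beyond 0.56 in either direction), 0 of the 30 were higher and 0 lower in Smc3/Bcl6 tumors by edgeR's quasi-likelihood test. Of all 14057 genes tested, 1.28% were higher and 0.868% lower by these thresholds. At an adjusted p below 0.05 there were 0 members and 0% of all genes. With no adjustment, 0 members had p below 0.05 by edgeR (0.562% of all genes), 0 by DESeq2 (1.49%) and 2 by limma with a quality weight per tumor (8.33%). In 0 of the 30 did the genotypes fail to overlap, against 0.484% of all genes.

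The log2 fold change (Smc3/Bcl6 minus Bcl6) was above 0 in 25 of the 30 genes, with a median of 0.71 against 0.06 over all genes tested. It was above 0 in all 5 H1, 8 H2A and 6 H4 genes tested, in 4 of 8 H2B genes and in 2 of 3 H3 genes. This direction rested on tumors 2 and 4. Without tumor 2 the median was 0.18, and Hist1h1b and Hist1h2ab were lower past the thresholds, against 1.39% of all genes. Without tumor 4 the median was 0.11. Without both, 25 members could be tested, 2 had a log2 fold change above 0 and the median was -0.60. Hist1h1b and Hist3h2ba were then lower past the thresholds, against 1.23% of all genes, and with DESeq2 only Hist1h1b was. Limma with quality weights called 4 members lower, Hist1h1b, Hist1h1e, Hist1h2ab and Hist1h2ae, against 7.13% of all genes, with a median of -0.17.

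**Figure D2:**
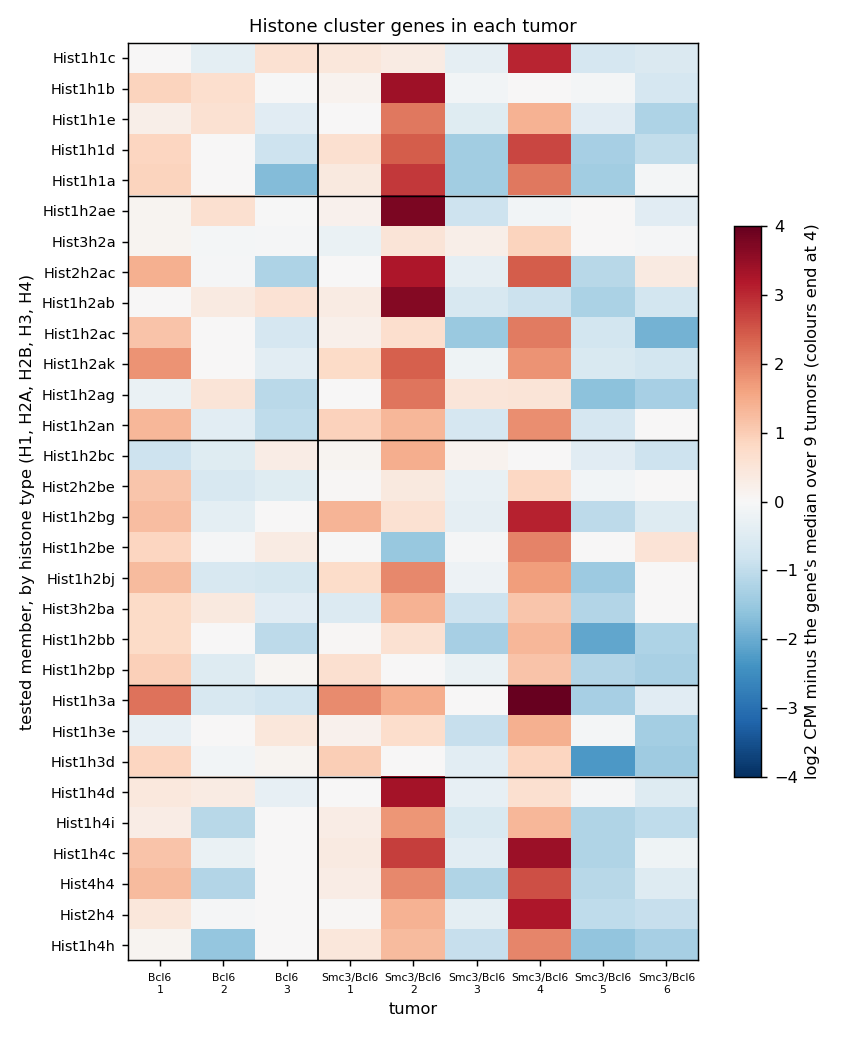
Log2 CPM of the 30 tested members (rows, by histone type) in each tumor (columns), as the difference from the gene's median over the 9 tumors, where red is above the median and blue below, and colours end at 4. Smc3/Bcl6 tumors 2 and 4 hold the highest value of 28 of the 30 genes. Over all genes tested, tumor 2 holds it for 29% and tumor 4 for 21.1%.

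Of the linker histones, Hist1h1c (ENSMUSG00000036181.2, chr13:23738808-23740367) had 27.9, 21.4 and 42.2 CPM in the Bcl6 tumors, where CPM of single genes are scaled by TMM. In Smc3/Bcl6 tumors 1 to 6 it had 37.9, 35.3, 21.7, 232, 17.5 and 18.8 CPM. Tumor 4 alone stood above the Bcl6 range, and tumors 5 and 6 lay below it. The log2 fold change was 0.99 (SE 0.88, edgeR adjusted p = 1.00) and -0.26 without tumor 4. The order of the tumors was another for Hist1h1b (ENSMUSG00000058773.2, chr13:21779883-21780625), with 17.6, 15.4 and 9.45 CPM in Bcl6 and 10.5, 102, 8.88, 9.52, 9.003 and 5.86 CPM in Smc3/Bcl6 tumors. Here tumor 2 stood out and tumor 4 did not. Its log2 fold change was 0.77 (SE 0.95, edgeR adjusted p = 1.00), -0.67 without tumor 2 and -0.70 without both (SE 0.30, edgeR unadjusted p = 0.0477 by the fit across all genes, adjusted p = 1.00).

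Hist1h1e was high in both tumors, with 33.3 CPM in tumor 2 and 20.03 in tumor 4 against 3.13 to 11.7 in the other 7. Hist1h1d had 15.7 and 18.6 CPM in tumors 2 and 4 and 0.992 to 5.20 in the others. Hist1h1a had 5.503 and 3.26 CPM and 0.0945 to 1.32 in the others. For these genes both tumors lay above all other tumors of either genotype. Hist1h1a and Hist1h1d had SDs of 1.58 and 1.54 over the 9 tumors on the log2 CPM scale, among the 5 largest of the family.

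Among H2A genes, Hist1h2ae (ENSMUSG00000069272.5, chr13:23570517-23571220) had 6.79, 9.83 and 6.24 CPM in Bcl6 tumors. It had 7.08, 88.4, 3.50, 5.86, 6.32 and 4.60 CPM in Smc3/Bcl6 tumors 1 to 6. Tumor 2 was far above every other tumor, and the other 5 Smc3/Bcl6 tumors lay within or below the Bcl6 range. The log2 fold change was 1.33 (SE 1.11, edgeR adjusted p = 1.00) and -0.47 without tumor 2. Hist1h2ab had 14.1 CPM in tumor 2 and 0.466 in tumor 4, against 0.316 to 1.51 in the other 7.

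Hist2h2ac was highest in both tumors, with 15.6 CPM in tumor 2 and 8.72 in tumor 4 against 0.567 to 4.32. Hist3h2a was the steadiest of the named genes, with 7.61 to 8.73 CPM in Bcl6 tumors and 6.66, 11.5, 9.51, 14.97, 8.06 and 7.73 CPM in Smc3/Bcl6 tumors. Its SD over the 9 tumors was 0.36 on the log2 scale and its log2 fold change 0.28 (SE 0.34, edgeR adjusted p = 1.00). Tumors 4 and 2 were again its highest.

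Hist1h2bc, an H2B gene (ENSMUSG00000018102.4, chr13:23684199-23692908) that is labelled in the study's volcano plot, had 12.2, 15.4 and 26.4 CPM in Bcl6 tumors and 23.5, 58.9, 23.7, 21.5, 15.8 and 12.1 CPM in Smc3/Bcl6 tumors. Only tumor 2 lay above the Bcl6 range. The log2 fold change was 0.53 (SE 0.50, edgeR adjusted p = 1.00). An exact two-sided permutation test over the 84 splits of the tumors gave p = 0.512, where the smallest possible p is 1 of the 84 splits. Without tumors 2 and 4 it was 0.06 (SE 0.37).

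Hist1h2bg (ENSMUSG00000058385.7, chr13:23571396-23572013) was high in tumor 4 instead. It had 5.91, 1.84 and 2.46 CPM in Bcl6 tumors and 6.59, 3.81, 1.88, 22.0, 1.11 and 1.67 CPM in Smc3/Bcl6 tumors. This gave a log2 fold change of 0.86 (SE 0.97, edgeR adjusted p = 1.00), and -0.18 without tumor 4. Hist2h2be was highest in a control tumor, with 15.4 CPM in Bcl6 tumor 1 against 4.48 and 5.10 in the others of that genotype and 5.75 to 12.6 in Smc3/Bcl6 tumors. For this gene the log2 fold change was -0.04 (SE 0.47). Hist3h2ba had 2.82, 2.16 and 1.13 CPM in Bcl6 tumors and 0.632 to 1.599 in Smc3/Bcl6 tumors other than 2 and 4, which had 4.45 and 3.59.

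H3 genes had the lowest counts. Hist1h3a (ENSMUSG00000069265.2) had 2.38, 0.216 and 0.189 CPM in Bcl6 tumors and 1.94, 1.38, 0.418, 12.3, 0.0790 and 0.267 CPM in Smc3/Bcl6 tumors. It varied most of the family, with an SD of 1.88 on the log2 scale, and its log2 fold change was 1.56 (SE 1.52, edgeR adjusted p = 1.00) and -0.15 without tumor 4. Hist1h3e had 0.706 to 1.32 CPM in Bcl6 and 0.267 to 2.73 in Smc3/Bcl6 tumors. Hist1h3d had 0.864 to 1.85 and 0.0790 to 2.01 CPM and a log2 fold change of -0.35 (SE 0.83), the lowest of the 30.

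Among H4 genes, Hist1h4d (ENSMUSG00000061482.6, chr13:23581598-23582735) had 13.1, 12.2 and 7.75 CPM in Bcl6 tumors and 9.78, 100.2, 7.83, 15.3, 9.48 and 6.80 CPM in Smc3/Bcl6 tumors. Tumor 2 stood far above the rest, and tumor 4 was next. The log2 fold change was 1.17 (SE 0.93, edgeR adjusted p = 1.00) and -0.14 without tumor 2. Hist1h4i had 18.9 and 13.8 CPM in tumors 2 and 4 against 2.29 to 6.79 in the other 7. Hist1h4c had 14.2 and 22.5 CPM against 0.790 to 4.59, with a log2 fold change of 1.398 (SE 1.11). For Hist1h4i and Hist1h4c, both tumors lay above all 7 others, Bcl6 tumors included.

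The genes that stood out were not the same throughout in tumors 2 and 4. For each tested gene, the level in a tumor was set against the median of the other 8 tumors. The median of this difference over the 30 genes was 1.71 log2 units in tumor 2 and 1.81 in tumor 4. It was 0.93, -0.19 and -0.12 in Bcl6 tumors 1 to 3 and 0.49, -0.57, -1.23 and -0.85 in Smc3/Bcl6 tumors 1, 3, 5 and 6, while over all genes it stayed between -0.09 and 0.09 in every tumor. Tumor 2 was the highest of the 9 for 13 of the 30 genes, and for 29% of all genes. Tumor 4 was the highest for 15, and for 21.1% of all genes. In 16 genes both lay above the other 7 tumors, a count for which the share over all genes was not taken.

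The 24 genes too low to test are given as values only. They held 14 to 117 counts, and none exceeded 4.13 CPM in any tumor. The highest were Hist1h4n, with 4.13 CPM in tumor 4 and 1.59 in tumor 2 against 0.0945 to 0.624 in the other 7, and Hist1h4m, with 2.596 CPM in tumor 4 and 0 to 1.15 elsewhere. Hist1h2bm (2.43 CPM), Hist1h3i (2.12) and Hist1h3c (2.01) were highest in tumor 2 instead, while tumor 4 had 0.399, 0.666 and 0.0666. Over all 54 genes, tumor 2 was above the median of the other 8 tumors in 53, tumor 4 in 44 and Bcl6 tumor 1 in 51. Over the 14057 genes tested, these counts were 6694, 6962 and 7939. Smc3/Bcl6 tumor 5 was above that median in 1 member and tumor 3 in 6, the fewest of the 9 tumors, against 6545 and 7014 of the genes tested. A gene could reach the limit of 10 counts through its highest tumors alone.

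Directly compared, 17 of the 30 genes differed by at most 1 log2 unit between the 2 tumors. The 6 that were more than 1 unit higher in tumor 2 were Hist1h2ab (by 4.55), Hist1h2ae (3.88), Hist1h1b (3.40), Hist1h4d (2.70), Hist1h2ag (1.62) and Hist1h2bc (1.45). The 7 that were more than 1 unit higher in tumor 4 were Hist1h2be, with a difference of tumor 2 minus tumor 4 of -3.51, Hist1h3a (-3.04), Hist1h1c (-2.71), Hist1h2bg (-2.49), Hist2h4 (-1.86), Hist1h2ac (-1.38) and Hist1h2bp (-1.13). Hist1h2be had 1.06 CPM in tumor 2, its lowest of all 9, and 13.5 in tumor 4, its highest. Hist2h4 had 19.2 CPM in tumor 4 and 5.19 in tumor 2. Each is 1 library, so these differences have no replicate and no test.

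**Figure D3:**
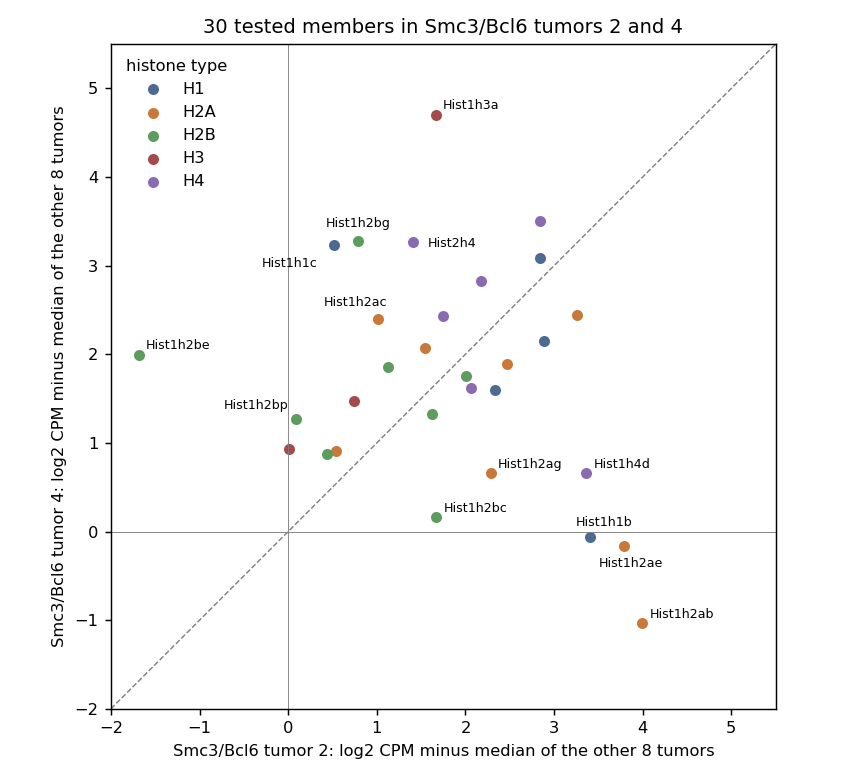
Each point is 1 of the 30 tested members, placed by its log2 CPM minus the median of the other 8 tumors in Smc3/Bcl6 tumor 2 (horizontal) and tumor 4 (vertical), coloured by histone type, with a dashed line of equality. Named genes differ by more than 1 log2 unit between the 2 tumors, and most of the 30 lie above 0 on both axes.

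With a correction for gene length and GC content in each tumor, the median difference over the members fell to 1.11 in tumor 2 and was 1.82 in tumor 4. Tumor 2 was then the highest tumor for 9 of the 30 genes, near its share of 28.8% over all genes. Tumor 4 was highest for 20, against 21.1% of all genes. Under this correction Hist1h2ae in tumor 2 was 2.84 log2 units above the other tumors in place of 3.79, Hist1h1b 2.33 in place of 3.40 and Hist1h4d 2.29 in place of 3.36. Hist1h2bc went from 1.67 to 0.57, and Hist1h1c from 0.52 to -0.53.

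H2A and H2B genes often lie head to head, as in the stretches shown above. There were 13 such pairs, 175 to 305 bases apart, and both genes were members in 9 and tested in 5. In Hist2h2ac and Hist2h2be, both were among their highest in tumors 2 and 4 and in Bcl6 tumor 1, and their log2 CPM correlated at r = 0.73 over the 9 tumors. The pairs Hist1h2an with Hist1h2bp and Hist1h2ag with Hist1h2bj had r = 0.70 and 0.69. In Hist1h2ae and Hist1h2bg, r was 0.08: the H2A gene was highest in tumor 2 (88.4 CPM, against 3.81 for its partner) and the H2B gene in tumor 4 (22.0, against 5.86). Hist1h2ac and Hist1h2bc had r = 0.21, with Hist1h2ac highest in tumor 4 and Hist1h2bc in tumor 2. Points share a library, and these r are descriptions of 9 tumors.

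**Figure D4:**
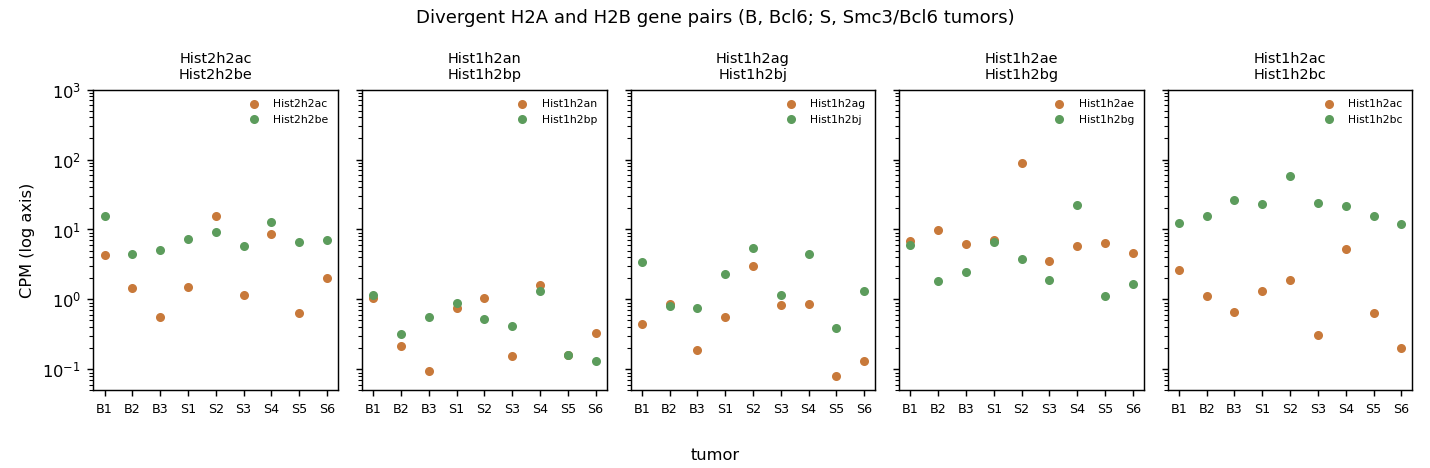
CPM on a log axis of the 5 tested head-to-head pairs in each tumor (B1 to B3, Bcl6; S1 to S6, Smc3/Bcl6), H2A gene in orange and H2B gene in green. Hist1h2ae and Hist1h2bg separate in opposite directions in S2 (88.4 and 3.81 CPM) and S4 (5.86 and 22.0 CPM).

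Mki67, a marker of cells in cycle, had 358, 242 and 226 CPM in Bcl6 tumors and 278, 53.5, 159, 84.9, 312 and 165 CPM in Smc3/Bcl6 tumors 1 to 6. The 2 tumors with the most histone counts had the least Mki67. Its log2 fold change was -0.65 (SE 0.50), and an exact two-sided permutation test gave p = 0.190. Over the 9 tumors, the summed share of histone counts had r = -0.72 and rho = -0.27 with Mki67 on the log2 scale. The share was scaled by total counts and Mki67 by TMM, and these scalings differ most in tumor 2 (TMM factor 0.693). Without tumors 2 and 4, which are the 2 farthest from the median of Mki67, r was 0.58 and rho 0.54, so the negative relation rested on those 2 tumors.

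Gene by gene, r with Mki67 on log2 CPM was below 0 in 29 of the 30 members, with a median of -0.58. Over all genes, 49.9% had r below 0 and the median was 0.0009. By an exact two-sided permutation test over all pairings, 7 of the 30 had an unadjusted p below 0.05 with r below 0, against 3.7% of all genes, and 0 passed an adjusted p of 0.05, as did 0% of all genes. The 7 were Hist3h2a (r = -0.77, exact p = 0.0189), Hist2h2ac, Hist1h4c, Hist1h2bc, Hist1h4d, Hist1h2ag and Hist1h4i. By Spearman's rho, Hist3h2a had -0.55 (exact p = 0.133). Counted in either direction, the number of members was 7 as well, against 10.3% of all genes, and ranged from 1 to 14 with each tumor left out. It was 14, 5 and 4 without Bcl6 tumors 1, 2 and 3 (9.93%, 10.3% and 9.58% of all genes). Without Smc3/Bcl6 tumor 2 or 5 it was 1 (17.8% and 10%), without tumor 4 it was 3 (13.6%), without tumor 1 or 3 it was 6 (9.03% and 9.21%) and without tumor 6 it was 9 (9.7%).

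Without tumors 2 and 4 the median r was 0.41 and 3 of the 30 were below 0, against a median of 0.034 and 47.6% below 0 over all genes. Hist1h4d went from -0.71 to 0.78 and Hist1h2ac from -0.27 to 0.86, and 0 members and 0% of all genes passed an adjusted p of 0.05. With Pcna, the replication clamp made in S phase, in place of Mki67, the median r over the 9 tumors was 0.53, and with Top2a, a G2 phase topoisomerase, it was -0.45. Pcna was highest in tumor 2, at 172 CPM against 42.5 to 93.5 elsewhere. The summed share, scaled by total counts, was also set against summed TMM-scaled CPM of gene lists. It had r = 0.12 with 33 S phase genes over the 9 tumors and 0.87 over the 7, and -0.24 and 0.66 with 30 G2 and M phase genes.

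**Figure D5:**
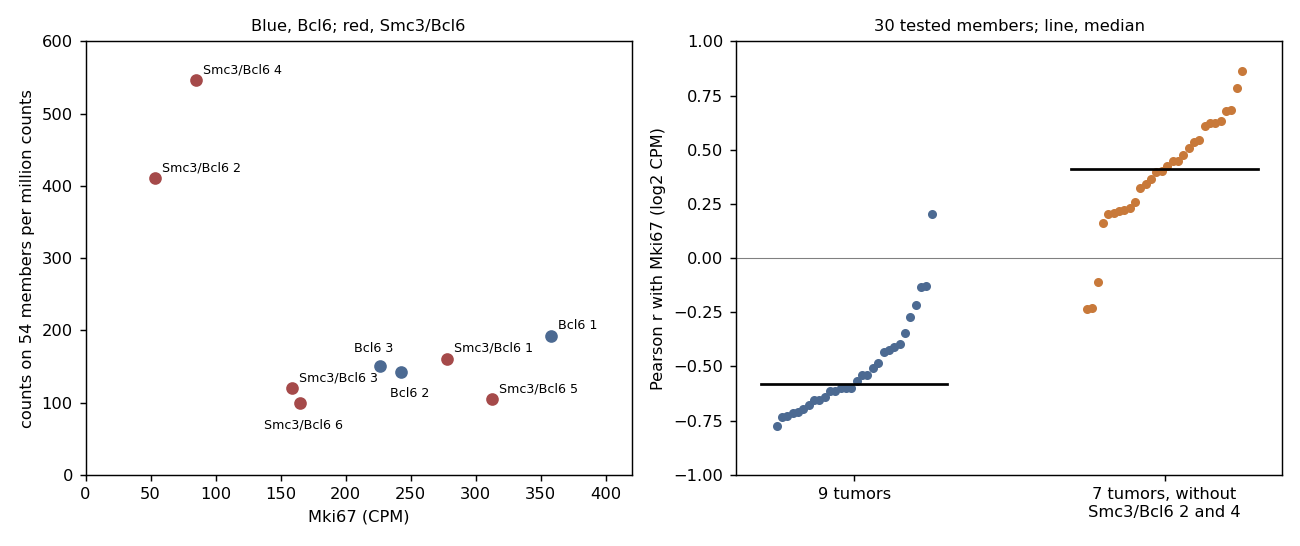
Left, summed CPM of the 54 members (vertical) against Mki67 CPM (horizontal), 1 point per tumor, Bcl6 in blue and Smc3/Bcl6 in red. Right, Pearson r of each of the 30 tested members with Mki67 on log2 CPM over 9 tumors and over the 7 without Smc3/Bcl6 tumors 2 and 4, with lines at the medians of -0.58 and 0.41.

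Of 36 genes that make and process histone mRNA, 0 were higher and 0 lower by the same thresholds, with a median log2 fold change of -0.06. Slbp, which binds the stem-loop, had 204, 148 and 123 CPM in Bcl6 and 131, 154, 145, 134, 127 and 124 CPM in Smc3/Bcl6 tumors, so tumors 2 and 4 lay within the range of the others (log2 fold change -0.22, SE 0.22). Npat, the activator of clustered histone genes, was lowest in tumor 2, at 12.5 CPM against 45.4 to 74.2 in the other tumors. Lsm10, a subunit of the U7 particle that helps cut the 3′ end, was highest in tumor 2, at 81.1 CPM against 16.9 to 30.8 in the others, and was named after its values were seen.

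Of 27 histone chaperones, 0 were higher and 0 lower, with a median of -0.19. Asf1b, which hands H3 and H4 to nucleosome assembly, had 263 CPM in tumor 2 and 36.7 in tumor 4, its highest and its lowest. Nasp, a chaperone of soluble H3 and H4, had 92.5 CPM in tumor 2 and 41.9 in tumor 4, against 63.1 to 117 in Bcl6 tumors, with a log2 fold change of -0.48 (SE 0.32). Neither of these 2 chaperones was high in tumor 4.

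Of 15 histone genes outside the clusters, 9 were tested, 0 were higher and 0 lower, and the median was 0.05. H3f3b, which codes for a replacement H3 histone made outside S phase, was highest in tumors 4 and 2, with 1136 and 873 CPM against 351 to 685 elsewhere. H2afx had 225 CPM in tumor 2 and 44.1 in tumor 4, H2afz 61.6 and 9.45, and the centromeric Cenpa 240 and 43.3. These 3 were highest in tumor 2 and lowest in tumor 4. H3f3a, which codes for the same protein, had 99.0 and 68.5 CPM, against 37.0 to 64.7 elsewhere, and the linker histone H1f0 had 169 and 40.3.

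Of the S phase genes, 2 of 33 were lower in Smc3/Bcl6 tumors by the same thresholds, Lig1 (log2 fold change -0.64) and Pola1 (-0.63), and 0 were higher, with a median of -0.22. Of the G2 and M phase genes, 7 of 30 were lower and 0 higher, with a median of -0.47. They were Bub1 (-1.04), Top2a (-0.96), Cenpe (-0.90), Hmmr (-0.84), Kif23 (-0.62), Prc1 (-0.62) and Tpx2 (-0.61), which serve mitosis and chromosome separation, and none passed an adjusted p of 0.05 in edgeR. Over all genes tested, 0.868% were lower and 1.28% higher by these thresholds, and the median was 0.06. Without Bcl6 tumor 1, 0 genes of either list passed the thresholds. In a fit that paired replicates 1 to 3 by number, 0 S phase and 4 G2 and M phase genes passed, all lower, against 254 of all 13360 genes tested.

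Cell type markers are given because tumor 4 had the highest erythroid sum. Of 14 erythroid markers, 10 were in the table and all 10 were highest in tumor 4, where they summed to 13317 CPM. The sum was 3227 in tumor 2, 4551 in Smc3/Bcl6 tumor 6 and 47.2 to 1619 in the other tumors, and no erythroid marker was at 0 over all tumors. Of the 10, 3 were higher in Smc3/Bcl6 tumors by the unadjusted thresholds, Klf1 and Slc4a1 among them, and 0 were lower. Over all genes tested, 1.28% were higher and 0.868% lower. Tumor 6, with the next highest erythroid sum, had the lowest histone counts of all 9 tumors. Tumor 4 also had the lowest sums of S phase and of G2 and M phase genes, at 2170 and 911 CPM. The part of erythroid cells in its histone counts was not tested.

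Other markers did not single out the 2 tumors together. T-cell markers summed to 1872 CPM in tumor 2 and 222 in tumor 4, within the range of 94.7 to 3125 over all tumors. Macrophage markers summed to 5193 and 2709, within 260 to 9022. Neutrophil markers summed to 114 and 923, within 12.5 to 2249, and the neutrophil enzymes Elane and Mpo were lower in Smc3/Bcl6 tumors by the unadjusted thresholds. Stromal and endothelial markers summed to 21.2 in tumor 2, the lowest, and 346 in tumor 4, the highest. The B-cell, plasma cell, T-cell, macrophage, platelet and stromal lists had 0 genes past the thresholds, and of germinal center B-cell genes Mybl1 was lower. Of all genes tested, 0.868% were lower by these thresholds.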

How the data were processed

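RNA-seq libraries of 3 Bcl6 and 6 Smc3/Bcl6 lymphomas were analyzed. The authors prepared them with the Illumina TruSeq RNA kit, ran the nf-core RNA-seq pipeline, aligned reads with STAR to mm10 and Gencode transcripts, and deposited featureCounts counts per gene without normalization. The submitters' processing notes name R 4.0.2 and DESeq2 1.28.1. The table held 0 columns without a sample.

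Genotypes, as the sample labels give them, were compared with the quasi-likelihood test of edgeR 4.0.16 (R 4.3.3) after its filter and TMM scaling, with p adjusted by Benjamini-Hochberg over 14057 genes, or for single genes by exact permutation of log2 CPM (prior count of 2). Sums over genes are CPM of all counts, and single-gene CPM are TMM-scaled. In correlations of the summed share, the sums of S phase and of G2 and M phase genes were TMM-scaled instead. Correlations with Mki67 used all 362880 pairings of 9 tumors, or 5040 of 7. The genes named are the 3 tested members with the most counts of each histone type, the 5 with the largest SD, those at the limit of 10 counts, Hist1h2bc, and genes of the lists past the thresholds or with a stated role. Genes that differ between tumors 2 and 4, members past the thresholds in alternatives, and genes of head-to-head pairs were named after their values were seen. Members and lists were chosen with earlier results of these data known.

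Alternatives were DESeq2 1.42.0, limma 3.58.1 with quality weights, changed normalizations and filters, a tissue covariate, an offset for gene length and GC content (lowess, span of 0.3), a block for replicates 1 to 3, and single tumors left out in turn. Fits without Smc3/Bcl6 tumors 2 and 4 were added after the data were seen. After subtraction of the genotype mean, tumors of the same number correlated over genes at r = 0.44, 0.11 and 0.16 (replicates 1 to 3), each above 0.1, so the numbers were treated as pairs in that alternative, although Bcl6 2 and Smc3/Bcl6 3 had r = 0.356; the pairing rests on these correlations, and the labels give only the numbers. On simulated data with 200 genes changed, each test was checked first. Positions and stem-loops came from GENCODE M21 (GRCm38) and promoters from RefSeq. The result of a further erythroid marker is not reported here.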

Additional observations from a re-analysis of the deposited data

Results flagged for a closer look

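Among 41 values tested within the 6 Smc3/Bcl6 tumors, 8 had a highest tumor set off from the next by more than Dixon's 95% critical share of the whole range, which chance gives in about 1 in 20 tests. The values are related, since sums hold the genes. Single genes were tested on log2 CPM and sums on CPM without a log, where a high value is set further off. The flags of the sums rest on that scale. In tumor 2 the flagged values, given as CPM, were Hist1h1b at 102 CPM, Hist1h4d at 100.2 CPM, Hist1h2ae at 88.4 CPM, Hist1h2ab at 14.1 CPM and the summed H2A genes at 97.7 CPM. In tumor 4 they were Hist1h1c at 232 CPM, the summed Hist2 genes at 42.7 CPM and the summed Hist3 genes at 19.0 CPM. The excluded pseudogene Hist3h2bb-ps, which lies outside the members, had 20 of its 35 counts in Smc3/Bcl6 tumor 4, against 3, 5 and 0 counts in the Bcl6 tumors.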

How the results depend on the processing

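With 3 tumors against 6, of which 2 stand apart, direction and calls depended on which tumors entered. The count of clustered histone genes past the unadjusted thresholds was 0 and became 4 with limma's quality weights, 2 without Smc3/Bcl6 tumors 2 and 4 (1 with DESeq2) and 0 to 2 with each tumor left out, and at an adjusted p of 0.05 it was 0 in every fit run. The median log2 fold change of the named histone genes was 0.86, ranged from 0.24 to 1.08 with each tumor left out, and was -0.53 without tumors 2 and 4 in both tools. Without both, edgeR and DESeq2 gave Hist1h1c -0.35 and -0.35, Hist1h1b -0.70 and -0.70, Hist1h4d -0.36 and -0.36, Hist1h2ae -0.49 and -0.50, and Hist1h2bg -0.25 and -0.25. Limma with quality weights gave a median of 0.015, with Hist1h1b -0.80, Hist1h4d -0.36, Hist1h2ae -0.71, Hist1h1c 0.04, Hist1h2bc 0.015, Hist1h2bg 0.16 and Hist1h3a 0.72. With each tumor left out, values ranged from -0.26 to 1.29 for Hist1h1c, -0.67 to 0.97 for Hist1h1b, -0.14 to 1.37 for Hist1h4d, -0.47 to 1.54 for Hist1h2ae, -0.15 to 3.62 for Hist1h3a and -0.18 to 1.44 for Hist1h2bg. The 5 lists of histone and cell cycle genes, marker lists aside, held 9 genes past the thresholds, and 15 with limma, 14 with library size only, 1 with the tissue label, 4 with the length and GC content offset, 4 with the replicate block and 2 with block and offset. With each tumor left out they held 0 (without Bcl6 tumor 1) to 29 (without Smc3/Bcl6 tumor 2). All were lower in Smc3/Bcl6 tumors, apart from 1 with limma. Of all 14057 genes tested, 122 were lower in the main fit, 1002 with limma, 175 with library size only, 192 with the tissue label and 114 with the offset. With the block 254 of 13360 were lower, and with block and offset 252. Without Bcl6 tumor 1 it was 240 of 14637, and without Smc3/Bcl6 tumor 2 it was 194 of 13942. With the block and offset Hist1h1c was -0.30 and Slbp 0.088, and with the pairing of replicates by the block alone the member count stayed 0 and no call of a member changed. The median r with Mki67 was -0.58, and 0.41 without the 2 farthest tumors, -0.45 with Top2a, 0.53 with Pcna and -0.70 to -0.37 with each tumor left out. The difference in summed share was 78.2 CPM, 44.1 without Smc3/Bcl6 tumor 2, 16.9 without tumor 4 and -41.0 without both. The alternative based on words unique in the genome was not run, and words unique among transcripts took its place. The cause of these changes was not tested.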
